A study of Mus musculus with 12 samples.

Results

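NRF2, the transcription factor encoded by Nfe2l2, was examined together with its inhibitor Keap1 and 8 of its classical target genes (Nqo1, Hmox1, Gclc, Gclm, Txnrd1, Srxn1, Gsr and Slc7a11) in 12 transplanted mouse lung tumors. The 10 genes were chosen by name, with earlier results of these data known, and all 10 were found among the 34678 gene symbols measured. Each had a mean level of at least 0.1 FPKM (fragments assigned to a gene, scaled to its length and to the mapped fragments of the library) and so entered the tests, as did 15350 genes in all. With palbociclib, Hmox1 was at 0.357 times its level without the drug, and this was the largest of the 10 differences between tumors with and without either drug. No difference of any of the 10 genes passed an adjusted p of 0.05 in any of 8 comparisons. Slc48a1, a heme transporter from a wider list of NRF2 pathway genes chosen in the same way, fell with palbociclib. This call held in 10 of 22 alternative analyses.

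Every tumor grew under the skin of a C57BL/6 mouse, of either sex, from LLC1-shLkb1 cells. The methods give 5 to 8 weeks as the age of the mice when bought, and the age at sampling is not given. LLC1-shLkb1 is a Lewis lung carcinoma line in which a short hairpin RNA against Lkb1 (Stk11) is expressed, a knockdown that all arms share. The 4 arms were vehicle (a control IgG according to the methods), palbociclib (an inhibitor of the cell cycle kinases CDK4 and CDK6, 100 mg/kg by mouth), anti-PD-1 (an antibody that blocks an inhibitory receptor of T cells, 200 µg per mouse into the abdomen) and the combination of both. RNA came from 3 tumors per arm. The methods have tumors collected 2 weeks after treatment for cell isolation and staining, and give no separate time for the RNA. They count samples as biological replicates but do not state that each sequenced tumor came from its own mouse. The p-values therefore measure the spread between tumors. A whole tumor holds carcinoma, immune and surrounding cells, and fewer cells of a type cannot be told apart from less RNA per cell.

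NRF2 is made constantly and is destroyed as fast as it is made, because KEAP1 hands it to a ubiquitin ligase. Oxidants and electrophiles modify cysteines of KEAP1, and NRF2 then builds up, pairs with a small MAF protein and binds antioxidant response elements beside its targets. Its activity is therefore set mainly at the protein level, and the RNA of its targets is the usual readout. The targets make and recycle glutathione and thioredoxin, and they break down quinones and heme. Loss of KEAP1, which frees NRF2, is common in lung carcinomas that have also lost LKB1. Hmox1 is also under the control of the repressor BACH1, and Slc7a11 under that of ATF4, so neither reads NRF2 alone.

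The core of the antioxidant response element is TGACNNNGC. It was searched on both strands of the RefSeq promoters (GRCm38.p6), from 250 bases before to 50 bases after each start site, which were available for 7 of the 10 genes (not Hmox1, Gclc and Gsr). It was in the windows of 4 of the 7 (Nfe2l2, Gclm, Txnrd1 and Srxn1), and 14% of the 27025 symbols with a promoter hold it. The Srxn1 match begins 28 bases after the start site. The other matches are shown with the 9 bases of the core in capitals, to set their letters beside those of the motif.
Nfe2l2, chr2:75704885-75704913, minus strand: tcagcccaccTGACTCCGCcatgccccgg
Gclm, chr3:122245413-122245441, plus strand: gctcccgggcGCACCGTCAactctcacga
Txnrd1, chr10:82859104-82859132, plus strand: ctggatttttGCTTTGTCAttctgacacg
In Nfe2l2 the core reads as written and begins 240 bases before the start site, inside an exon of E030042O20Rik, a transcript that runs the other way. In Gclm and Txnrd1 it is on the opposite strand, beginning 134 and 92 bases before the start site. The Txnrd1 match lies in an intron of a longer Txnrd1 transcript, ahead of an inner start site. These are matches of letters only.

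The libraries held an estimated 14900000 to 20300000 fragments. Stk11, the gene targeted in the line, was at 7.90 to 11.5 FPKM in every tumor, and with no tumor of the parental line the knockdown cannot be checked. The carcinoma label rests on Krt8 (62.0 to 276 FPKM), as Epcam, Krt18 and Krt19 reached at most 1.81, 5.08 and 4.39 FPKM. Genes of neighboring tissue stood out in some tumors. The summed level of 7 adipocyte genes was 989 FPKM in combination replicate 1 and 404 FPKM in palbociclib replicate 1, against at most 4.75 FPKM in the tumors without palbociclib. The sum of 7 skin genes was 369 FPKM in palbociclib replicate 2 and at most 1.118 FPKM elsewhere, and that of 7 skeletal muscle genes reached 165 FPKM in palbociclib replicate 3, 151 FPKM in combination replicate 2 and 54.6 FPKM in vehicle replicate 1. The main differences are therefore also given without the tumors highest in adipocyte, erythroid and skin genes (combination replicates 1 and 2 and palbociclib replicate 2), and without the 3 tumors with the highest sum of adipocyte, muscle and skin genes (combination replicate 1 and palbociclib replicates 1 and 2). Each of these fits leaves an arm with 1 tumor, which is assumed to vary like the others.

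Averaged over the 12 tumors, the levels were, in falling order, Hmox1 (102 FPKM), Txnrd1 (92.2), Gsr (85.1), Nfe2l2 (44.4), Srxn1 (21.0), Gclc (17.1), Keap1 (13.4), Gclm (5.63), Nqo1 (4.45) and Slc7a11 (0.611 FPKM). FPKM is per length, so these levels can be set beside each other. Hmox1, Txnrd1 and Gsr were above 97.3% to 97.8% of genes tested by level, and Nfe2l2 was above 93.6% of them. Hmox1 exceeded Txnrd1 in only 6 of 12 tumors and Srxn1 exceeded Gclc in 8 of 12, so the order of those neighbors did not hold beyond the spread. Gsr over Nfe2l2, Nfe2l2 over Srxn1, Keap1 over Gclm and Nqo1 over Slc7a11 held in 12 of 12 tumors. Nqo1, often the first gene measured as a sign of NRF2 activity, sat near the middle of all genes tested (above 50.4% of them).

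**Figure D1:**
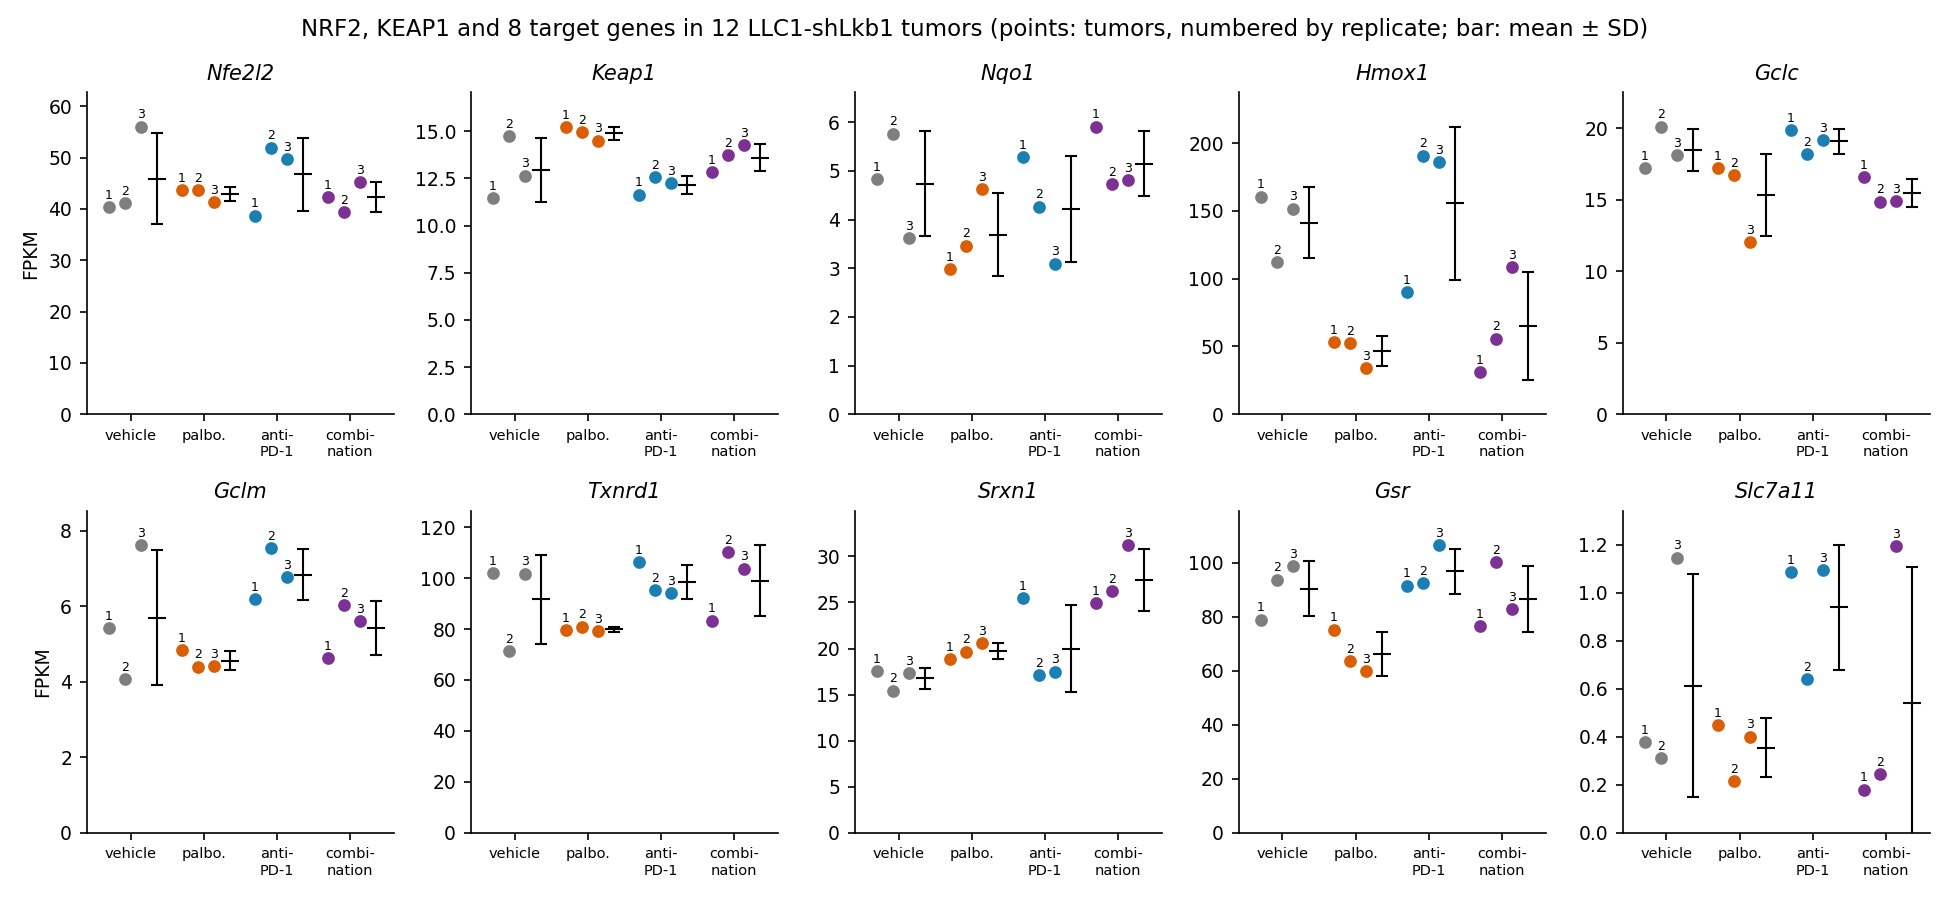
Level in FPKM (vertical axes from 0) of Nfe2l2, Keap1 and the 8 targets in each tumor of the 4 arms (horizontal axes, palbo. is palbociclib), with points numbered by replicate and the mean ± SD of 3 tumors beside them, the SD bar of Slc7a11 in the combination being cut at 0. Hmox1 separates the vehicle arm (112 to 161 FPKM) from the palbociclib arm (34.0 to 53.0 FPKM), while Nfe2l2 and Nqo1 overlap between these arms.

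Neither regulator of the pathway passed the test. Nfe2l2 (chromosome 2, 75675513 to 75704641, minus strand) was at 40.3, 41.2 and 56.1 FPKM with vehicle, 43.6, 43.7 and 41.3 with palbociclib, 38.7, 51.9 and 49.7 with anti-PD-1, and 42.3, 39.3 and 45.2 with the combination. The arms overlapped, with vehicle replicate 3 highest. The palbociclib effect, which is the mean of palbociclib minus vehicle and combination minus anti-PD-1 and so uses all 12 tumors, was -0.11 on the log2 scale for Nfe2l2 (95% confidence interval -0.33 to 0.11, limma adjusted p = 0.557). Keap1 (chromosome 9, 21229730 to 21239361, minus strand), which holds NRF2 down, was at 11.4, 14.7 and 12.6 FPKM with vehicle, 15.2, 14.96 and 14.5 with palbociclib, 11.6, 12.6 and 12.2 with anti-PD-1, and 12.8, 13.7 and 14.2 with the combination. The 6 tumors with palbociclib lay between 12.8 and 15.2 FPKM and overlapped the others through vehicle replicate 2 alone. The palbociclib effect on Keap1 was 0.18 (SE 0.07, unadjusted p = 0.023, limma adjusted p = 0.182). The ratio of Nfe2l2 to Keap1 was 2.88 ± 0.0344 (SD of 3 tumors) with palbociclib and 3.58 ± 0.823 (SD of 3 tumors) with vehicle, whose tumors ranged from 2.79 to 4.44.

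Hmox1 (chromosome 8, 75093621 to 75100589) encodes heme oxygenase 1, which opens the heme ring and releases iron, carbon monoxide and biliverdin. It was at 161, 112 and 152 FPKM with vehicle and at 53.0, 52.6 and 34.0 FPKM with palbociclib. It was at 90.1, 191 and 186 FPKM with anti-PD-1 and at 31.0, 55.6 and 109 FPKM with the combination. The vehicle tumors lay above all tumors of the palbociclib and combination arms, whereas anti-PD-1 replicate 1 lay below combination replicate 3. The mean and SD over 3 tumors were 141 ± 25.9 FPKM in the vehicle arm, 46.5 ± 10.8 in the palbociclib arm, 156 ± 56.7 in the anti-PD-1 arm and 65.1 ± 39.6 in the combination arm. On the log2(FPKM + 0.1) scale, palbociclib minus vehicle was -1.61 (SE 0.42, limma adjusted p = 0.184) and combination minus anti-PD-1 was -1.36 (SE 0.42, limma adjusted p = 0.327). The palbociclib effect was -1.49 (SE 0.29, 95% confidence interval -2.13 to -0.84, unadjusted p = 0.000369). Its limma adjusted p was 0.0642, short of the threshold, and the gene ranked 87 of 15350 by p. The interaction asks whether palbociclib acted differently when anti-PD-1 was given too, and for Hmox1 it was 0.25 (95% confidence interval -1.05 to 1.55, limma adjusted p = 0.979), too wide to tell.

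Hmox1 sat close to the threshold, and single tumors decided its side of it. Without anti-PD-1 replicate 1 the palbociclib effect was -1.66 (limma adjusted p = 0.0263), and without vehicle replicate 1 it was -1.44 (limma adjusted p = 0.0415). Leaving out 1 tumor at a time gave -1.72 to -1.27, with adjusted p-values from 0.0263 to 0.183. Without combination replicates 1 and 2 and palbociclib replicate 2 it was -1.08 (limma adjusted p = 0.314), and without combination replicate 1 and palbociclib replicates 1 and 2 it was -1.48 (limma adjusted p = 0.236). The difference was below 0 in all 22 alternatives. Levels of cell type markers also varied between the tumors. The sum of the neutrophil genes Csf3r, Cxcr2 and S100a8 ranged from 7.36 to 133 FPKM with vehicle, 5.70 to 9.28 with palbociclib, 9.90 to 57.1 with anti-PD-1 and 4.71 to 21.0 with the combination, and 3 of 3 had a palbociclib effect below 0. The sum of 8 macrophage genes ranged from 123 to 194 FPKM with vehicle, 183 to 262 with palbociclib, 116 to 225 with anti-PD-1 and 122 to 227 with the combination, and 7 of 8 had a palbociclib effect above 0. The sum of 5 erythroid genes, which mark heme-rich red cells, was 105 to 290 FPKM with vehicle, 118 to 398 with palbociclib, 141 to 666 with anti-PD-1 and 45.9 to 1128 with the combination. The arms overlapped, with combination replicate 3 the lowest tumor of all, although 5 of 5 erythroid genes had a palbociclib effect above 0. Of all 15350 genes tested, 9184 had a palbociclib effect above 0 and 6166 below 0. The sum of 3 T cell genes was 0.583 to 2.42 FPKM with vehicle, 2.65 to 5.15 with palbociclib, 0.593 to 1.56 with anti-PD-1 and 1.70 to 5.13 with the combination, and that of the adipocyte genes was higher with palbociclib for 7 of 7 genes. On the log2 scale over the 12 tumors, the Pearson correlation of Hmox1 was 0.76 with the neutrophil sum and -0.54 with the macrophage sum. It was -0.71 with the T cell sum, -0.81 with the adipocyte sum and -0.22 with the erythroid sum. With the skin and skeletal muscle sums it was -0.50 and -0.33. Sums of 3 endothelial, 5 fibroblast and 4 carcinoma genes had 0.56, -0.23 and 0.12. Arm means were not removed, so differences between arms enter these values, which are descriptions. The part of these cells in the Hmox1 difference was not tested.

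Gclc and Gclm encode the catalytic and modifier subunits of glutamate-cysteine ligase, the rate-limiting enzyme of glutathione synthesis. Gclc (chromosome 9, 77754535 to 77794485) was at 17.2, 20.1 and 18.1 FPKM with vehicle, 17.2, 16.7 and 12.04 with palbociclib, 19.9, 18.2 and 19.2 with anti-PD-1, and 16.6, 14.8 and 14.9 with the combination. The 6 tumors with palbociclib (highest 17.19 FPKM) and the 6 without it (lowest 17.20 FPKM) did not overlap, but they all but touched. Gclc was the 1 gene of the 10 with no overlap between those groups, which 1.43% of all genes tested showed (0.41% with the palbociclib tumors lower). Its palbociclib effect was -0.29 (SE 0.09, unadjusted p = 0.00886, limma adjusted p = 0.133). Gclm (chromosome 3, 122245557 to 122270732) was at 5.41, 4.07 and 7.62 FPKM with vehicle, 4.84, 4.40 and 4.41 with palbociclib, 6.19, 7.54 and 6.77 with anti-PD-1, and 4.62, 6.03 and 5.60 with the combination. Vehicle replicate 2 was the lowest tumor of all and vehicle replicate 3 the highest, so the vehicle arm alone spanned the range of Gclm. The palbociclib effect on Gclm was -0.30 (SE 0.14, limma adjusted p = 0.242). Gclc RNA exceeded Gclm RNA in every tumor, by 2.37 to 4.94 times.

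Slc7a11 (chromosome 3, 49892526 to 50443614, minus strand) is the exchanger that brings in cystine for glutathione synthesis. It was the lowest of the 10 genes, with an estimated 40 to 324 fragments per tumor. It was at 0.378, 0.310 and 1.15 FPKM with vehicle, 0.448, 0.214 and 0.400 with palbociclib, 1.09, 0.640 and 1.09 with anti-PD-1, and 0.179, 0.245 and 1.195 with the combination. Replicate 3 of both the vehicle and the combination arm stood well above the other tumors of its arm, and all arms but palbociclib and anti-PD-1 overlapped. The palbociclib effect was -0.76 (95% confidence interval -1.66 to 0.13, limma adjusted p = 0.311), and it was 0.05 without combination replicates 1 and 2 and palbociclib replicate 2. Slc3a2, which encodes the partner chain of the exchanger, was at 33.4 to 46.8 FPKM, far above Slc7a11.

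Gsr (chromosome 8, 33652523 to 33698163) encodes glutathione reductase, which returns oxidized glutathione to its reduced form. It was at 79.0, 93.8 and 98.8 FPKM with vehicle, 75.3, 63.6 and 59.8 with palbociclib, 91.5, 92.5 and 107 with anti-PD-1, and 76.7, 100.2 and 83.0 with the combination. The palbociclib arm lay below the vehicle, anti-PD-1 and combination arms. Palbociclib minus vehicle was -0.45 (SE 0.13, limma adjusted p = 0.236), combination minus palbociclib was 0.38 (SE 0.13, unadjusted p = 0.0152) and the palbociclib effect was -0.31 (SE 0.09, limma adjusted p = 0.125). The Gsr interaction was 0.28 (95% confidence interval -0.13 to 0.70, limma adjusted p = 0.911).

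Srxn1 (chromosome 2, 152105516 to 152111376) encodes sulfiredoxin, which repairs overoxidized peroxiredoxins, and its palbociclib effect was above 0 where that of Hmox1 was below 0. It was at 17.5, 15.4 and 17.3 FPKM with vehicle, 18.9, 19.7 and 20.6 with palbociclib, 25.4, 17.1 and 17.5 with anti-PD-1, and 24.9, 26.2 and 31.2 with the combination. The vehicle tumors lay below those of both palbociclib arms, and the combination overlapped the anti-PD-1 arm through anti-PD-1 replicate 1. The mean and SD over 3 tumors were 16.8 ± 1.15 FPKM in the vehicle arm and 27.4 ± 3.34 FPKM in the combination arm. Combination minus vehicle was 0.70, or 1.63-fold (SE 0.15, unadjusted p = 0.000585), and although Srxn1 ranked 38 of 15350 by p there, its limma adjusted p was 0.184. The palbociclib effect was 0.35 (SE 0.10, limma adjusted p = 0.122) and the anti-PD-1 effect was 0.35 (SE 0.10, limma adjusted p = 0.723). Without anti-PD-1 replicate 1 the palbociclib effect on Srxn1 was 0.45 and passed (limma adjusted p = 0.0236), so 1 tumor decided this call.

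Txnrd1 (chromosome 10, 82833951 to 82897712) encodes the cytosolic thioredoxin reductase. It was at 102, 71.4 and 102 FPKM with vehicle, 79.4, 80.9 and 79.3 with palbociclib, 106, 95.2 and 94.1 with anti-PD-1, and 83.3, 110.1 and 104 with the combination. All tumors of the combination arm exceeded those of the palbociclib arm, but vehicle replicate 2 was the lowest of the 12. The palbociclib effect on Txnrd1 was -0.09 (95% confidence interval -0.32 to 0.14, limma adjusted p = 0.642). Nqo1 (chromosome 8, 107388225 to 107403206, minus strand) encodes a quinone reductase. It was at 4.82, 5.76 and 3.62 FPKM with vehicle, 2.98, 3.46 and 4.63 with palbociclib, 5.28, 4.26 and 3.09 with anti-PD-1, and 5.91, 4.73 and 4.81 with the combination. Its palbociclib effect was -0.02 (95% confidence interval -0.38 to 0.34, limma adjusted p = 0.954), the smallest of the 10. The average covers differences of opposite sign, as palbociclib minus vehicle was -0.35 and combination minus anti-PD-1 was 0.31, although the Nqo1 interaction of 0.66 did not pass (SE 0.33, limma adjusted p = 0.866).

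**Figure D2:**
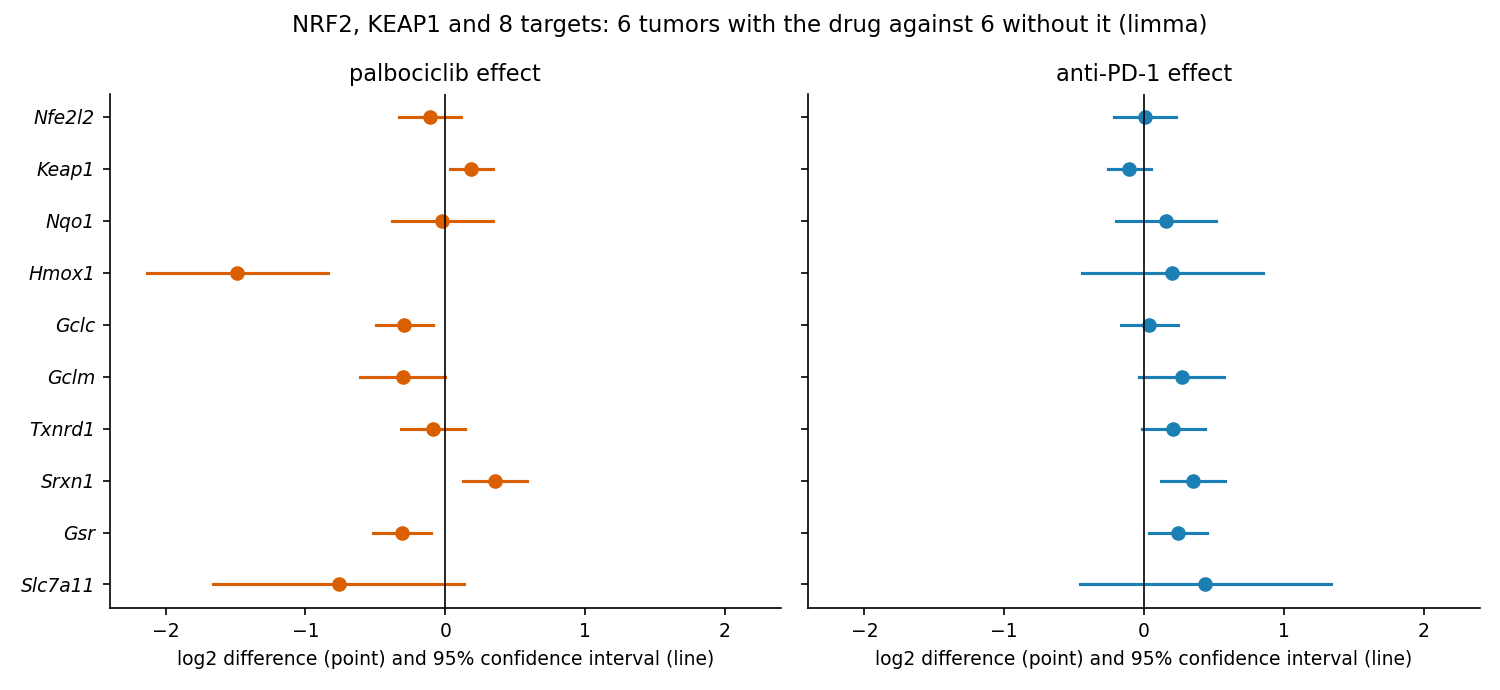
Palbociclib effect (left) and anti-PD-1 effect (right) on Nfe2l2, Keap1 and the 8 targets, as log2 differences (points) with their 95% confidence intervals (lines) from limma, 6 tumors with the drug against 6 without it. The interval of Hmox1 with palbociclib (-2.13 to -0.84) lies farthest from 0, and with anti-PD-1 the intervals of Srxn1 (0.12 to 0.58) and Gsr (0.03 to 0.45) alone leave out 0.

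The 10 genes were then counted in each comparison. In the palbociclib effect limma called 0 of the 10, against 0.313% of all genes tested (0.0651% lower). At an unadjusted p under 0.05 there were 6 of 10, with Hmox1, Gsr, Gclc and Gclm lower and Srxn1 and Keap1 higher, against 20.5% of all genes (6.44% lower and 14.1% higher). The median of the 10 was -0.20 and that of all genes tested was 0.06. In palbociclib minus vehicle 0 of 10 were called (0.143% of all genes), and 2 of 10 had an unadjusted p under 0.05 (Hmox1 and Gsr, both lower) against 13.8% of all genes (4.36% lower). The vehicle and palbociclib tumors did not overlap for 4 of 10 (Srxn1, Hmox1, Gclc and Gsr), against 19.3% of all genes. The median of the 10 there was -0.28, with 8 of 10 below 0, and that of all genes 0.07.

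With anti-PD-1 alone no gene of the 10 stood apart from vehicle. In anti-PD-1 minus vehicle limma called 0 of the 10 and 0 of all genes, and 0 of 10 had an unadjusted p under 0.05 against 8.4% of all genes. The arms did not overlap for 0 of 10, against 11.3% of all genes. In the anti-PD-1 effect 0 of 10 were called and 2 of 10 (Srxn1 and Gsr, both higher) had an unadjusted p under 0.05 against 6.77% of all genes (1.64% higher), and the 6 tumors with anti-PD-1 were apart from the 6 without it for 0 of 10, against 0.182% of all genes. For Gsr it was 0.24 (SE 0.09, unadjusted p = 0.0265, limma adjusted p = 0.723). The median anti-PD-1 effect was 0.21 over the 10 genes, with 9 of 10 above 0, and -0.04 over all genes tested.

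With the combination, Srxn1 and Hmox1 lay on opposite sides of vehicle. In combination minus vehicle limma called 0 of 10 (0.013% of all genes), and Srxn1 (higher) and Hmox1 (lower, -1.29, SE 0.42) had an unadjusted p under 0.05 against 17% of all genes. Those arms did not overlap for 3 of 10 (Srxn1, Hmox1 and Gclc), against 22.5% of all genes. In combination minus palbociclib 0 of 10 were called (0.00651% of all genes), and Srxn1 and Gsr, both higher, had an unadjusted p under 0.05 against 4.52% of all genes (1.06% higher). For 5 of 10 the arms did not overlap (Nqo1, Txnrd1, Srxn1 and Gsr higher, Keap1 lower), against 13.7% of all genes. The median of the 10 there was 0.27 and that of all genes -0.04, with 8 of 10 above 0. In combination minus anti-PD-1 0 of 10 were called (0.00651% of all genes), and Srxn1 (higher), Hmox1 and Gclc (both lower) had an unadjusted p under 0.05 against 11.8% of all genes. For 3 of 10 those arms did not overlap (Keap1 higher, Gclc and Gclm lower), against 18.8% of all genes. The interaction called 0 of 10 and 0 of all genes, with 0 of 10 at an unadjusted p under 0.05 against 5.73% of all genes. These comparisons share tumors and are not separate evidence.

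A wider list of 78 NRF2 pathway genes was then read in the same fit, of which 77 were measured and 69 passed the filter on low values. It covers regulators, glutathione enzymes, thioredoxin and peroxide enzymes, NADPH enzymes, heme and iron genes, and detoxification enzymes. In the palbociclib effect limma called 1 of 69, Slc48a1, against 0.313% of all genes. At an unadjusted p under 0.05 there were 8 of 69 lower and 9 of 69 higher, against 6.44% and 14.1% of all genes. The median of the 69 was 0.08, close to the 0.06 of all genes. In each of the other 7 comparisons limma called 0 of 69, where 0% to 0.143% of all genes were called. At an unadjusted p under 0.05 there were 7 of 69 in palbociclib minus vehicle (13.8% of all genes), 3 of 69 in anti-PD-1 minus vehicle (8.4%) and 10 of 69 in combination minus vehicle (17%). In combination minus palbociclib there were 3 of 69 (4.52% of all genes), in combination minus anti-PD-1 12 of 69 (11.8%), in the anti-PD-1 effect 3 of 69 (6.77%) and in the interaction 3 of 69 (5.73%).

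The heme and iron genes held the 1 call, and all 7 are therefore described, a choice made after their values were seen. Slc48a1 (chromosome 15, 97778520 to 97792692) encodes HRG1, which moves heme out of the lysosome, where macrophages digest red cells. It was at 22.5, 23.1 and 32.2 FPKM with vehicle, 16.7, 16.8 and 18.4 with palbociclib, 29.3, 34.0 and 32.1 with anti-PD-1, and 19.7, 18.8 and 21.6 with the combination. All 6 tumors with palbociclib lay below all 6 without it. Slc48a1 fell with palbociclib to 0.654 times its level without the drug (palbociclib effect -0.61, SE 0.09, limma adjusted p = 0.0399), ranking 13 of 15350 by p. The call held in 10 of 22 alternatives, with adjusted p-values from 0.0220 to 0.266, while the difference stayed between -0.67 and -0.53. It was lost without vehicle replicate 2, anti-PD-1 replicate 2 or 3, combination replicate 1 or 3, or any 1 palbociclib tumor (limma adjusted p from 0.0531 to 0.136). Without combination replicates 1 and 2 and palbociclib replicate 2 it was -0.55 (limma adjusted p = 0.266), and without combination replicate 1 and palbociclib replicates 1 and 2 it was -0.56 (limma adjusted p = 0.254). The neutrophil, macrophage, T cell and adipocyte sums given beside Hmox1 were not compared with Slc48a1. The part of these cells in the Slc48a1 difference was not tested.

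Of the other 6 heme and iron genes none passed the adjusted test. Fth1, the ferritin heavy chain that stores iron, was at 1957, 2304 and 3529.5 FPKM with vehicle, 1533, 1202 and 1802 with palbociclib, 2024, 3505 and 2952 with anti-PD-1, and 1482, 1892 and 2062 with the combination. The vehicle and palbociclib arms of Fth1 did not overlap, as for 19.3% of all genes tested, while its anti-PD-1 and combination arms did overlap. Its palbociclib effect was -0.69 (SE 0.20, limma adjusted p = 0.113). Ftl1, the light chain, was at 173 to 242 FPKM in tumors with palbociclib and 190.2 to 287 without it (palbociclib effect -0.27, limma adjusted p = 0.208). Both ferritin genes have near-identical processed copies in the genome, and how fragments were divided among them is not known. Slc40a1, which encodes the iron exporter ferroportin, was at 0.203 to 1.33 FPKM with palbociclib and 0.253 to 2.62 without it (palbociclib effect -1.19, SE 0.49, limma adjusted p = 0.211). Blvra, the reductase that turns biliverdin into bilirubin, lay on the other side of 0 (palbociclib effect 0.31, SE 0.11, limma adjusted p = 0.155). Blvrb had 0.26 (limma adjusted p = 0.370) and Fech, which puts iron into heme, had 0.07 (limma adjusted p = 0.692). Hmox1 over Blvra, successive enzymes of heme breakdown, was 11.3 ± 2.31 (SD of 3 tumors) in the vehicle arm and 3.29 ± 0.926 in the palbociclib arm, without overlap. The same ratio was 7.34 to 18.1 with anti-PD-1 and 1.86 to 7.38 with the combination, and those arms overlapped.

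**Figure D3:**
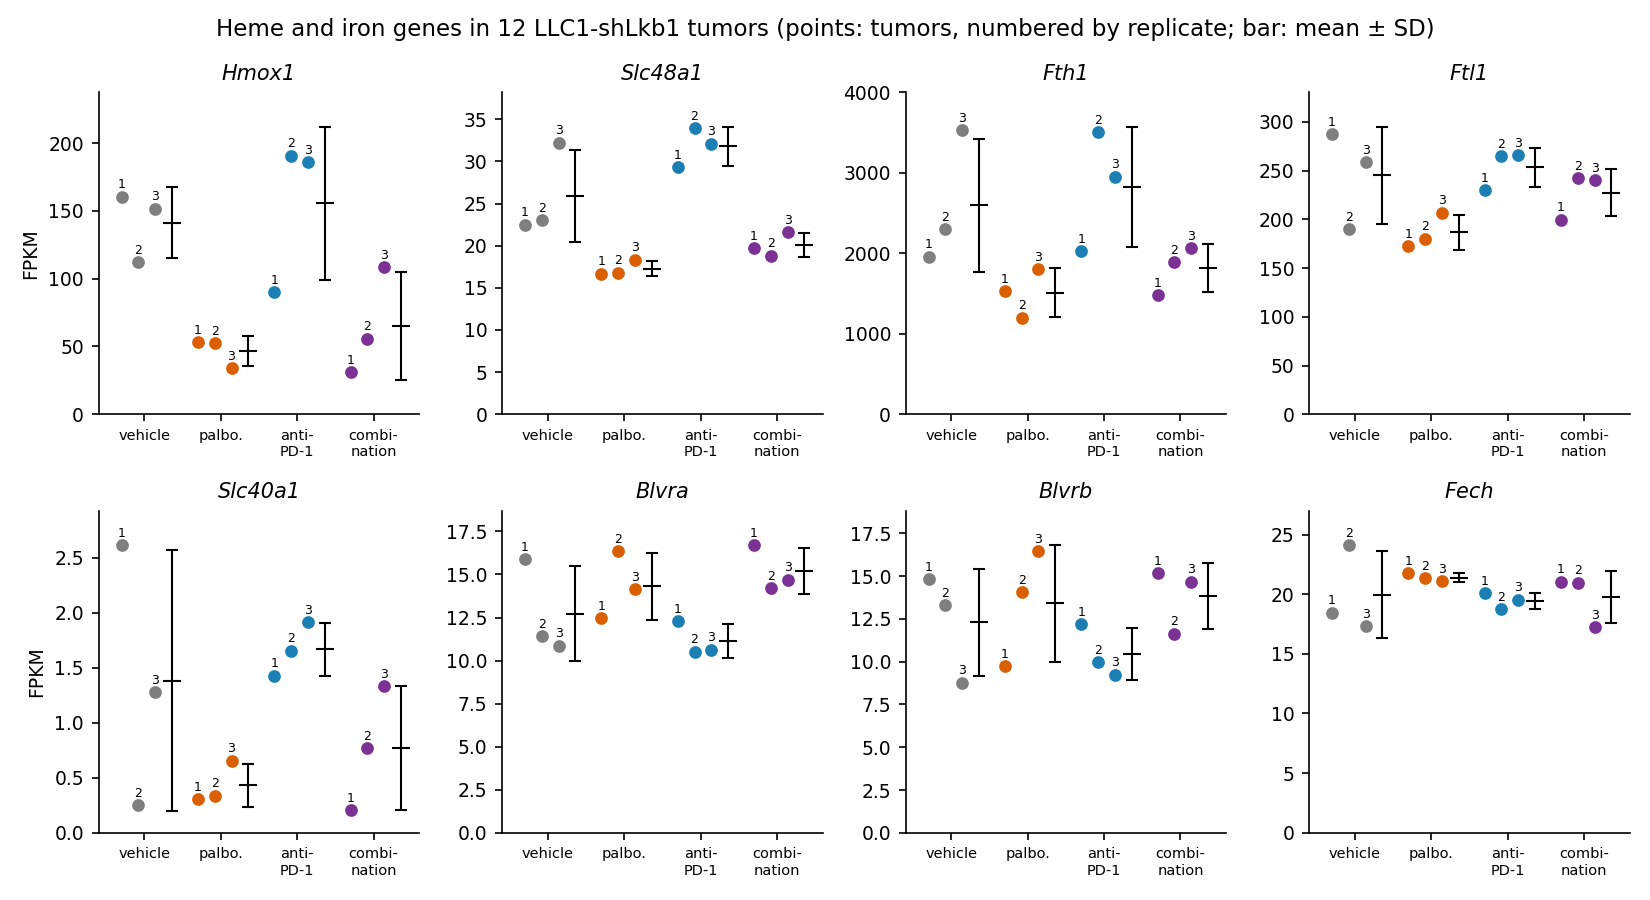
Level in FPKM (vertical axes from 0) of Hmox1 and 7 other heme and iron genes in each tumor of the 4 arms (horizontal axes), with points numbered by replicate and the mean ± SD of 3 tumors beside them. Slc48a1 is the gene whose 6 tumors with palbociclib (16.7 to 21.6 FPKM) all lie below the 6 without it (22.5 to 34.0 FPKM), while Blvra, Blvrb and Fech do not separate.

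The other groups showed no call. Of 20 glutathione genes, Mgst2 had the lowest palbociclib effect (-0.73, SE 0.25, limma adjusted p = 0.151), and Gpx1, the main cytosolic glutathione peroxidase, the highest (1.04, SE 0.46, limma adjusted p = 0.231). Gpx1 was at 23.1 to 96.1 FPKM with palbociclib and 20.2 to 60.1 FPKM without it, so the groups overlapped, and single tumors of every arm lay far from the others of that arm. Gpx3 (1.03, limma adjusted p = 0.533) and Mgst1 (1.04, limma adjusted p = 0.290) were highest in combination replicate 1, at 33.2 and 14.7 FPKM, the tumor with the most adipocyte RNA. Of 13 thioredoxin and peroxide genes, catalase (Cat, 0.45, SE 0.20, limma adjusted p = 0.232) also peaked in that tumor, at 47.8 FPKM against 16.7 to 26.5 FPKM in the other 11. The 6 tumors without the drug were at 16.7 to 19.1 FPKM. All 6 NADPH genes had a palbociclib effect above 0 (median 0.13), as did 9184 of all 15350 genes tested. In palbociclib minus vehicle 3 of the 6 were above 0 (median 0.01), and in combination minus anti-PD-1 all 6 were (median 0.26). Their anti-PD-1 effect was also above 0 for all 6 (median 0.19), and none passed the adjusted test.

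Among 10 regulators the palbociclib effect had a median of -0.11. Maff, a small MAF partner of NRF2, was at 25.9, 51.5 and 46.9 FPKM with vehicle, 23.2, 29.1 and 17.7 with palbociclib, 6.02, 37.0 and 36.1 with anti-PD-1, and 23.4, 23.3 and 23.9 with the combination. Anti-PD-1 replicate 1 was the lowest of the 12 for Maff and also the lowest of its arm for Hmox1. The anti-PD-1 effect on Maff was -0.47 (SE 0.40, limma adjusted p = 0.797), and that on Nfe2l1, a relative of Nfe2l2, was 0.54 (SE 0.26, limma adjusted p = 0.723). Of 13 detoxification genes, 10 had a palbociclib effect above 0, with a median of 0.09 and a range from -0.57 to 1.36. Among them Aox1 (aldehyde oxidase) had a palbociclib effect of -0.57 (SE 0.28, limma adjusted p = 0.271) and an anti-PD-1 effect of -0.38 (limma adjusted p = 0.764). The highest anti-PD-1 effect among wider-list genes of at least 1 FPKM was that of Slc40a1 (0.59, limma adjusted p = 0.790). A separate list of 8 ATF4 genes, the other pathway that drives Slc7a11, had a median palbociclib effect of -0.14 and 0 calls by limma (0.313% of all genes), with 1 of 8 at an unadjusted p under 0.05 (20.5% of all genes).

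**Figure D4:**
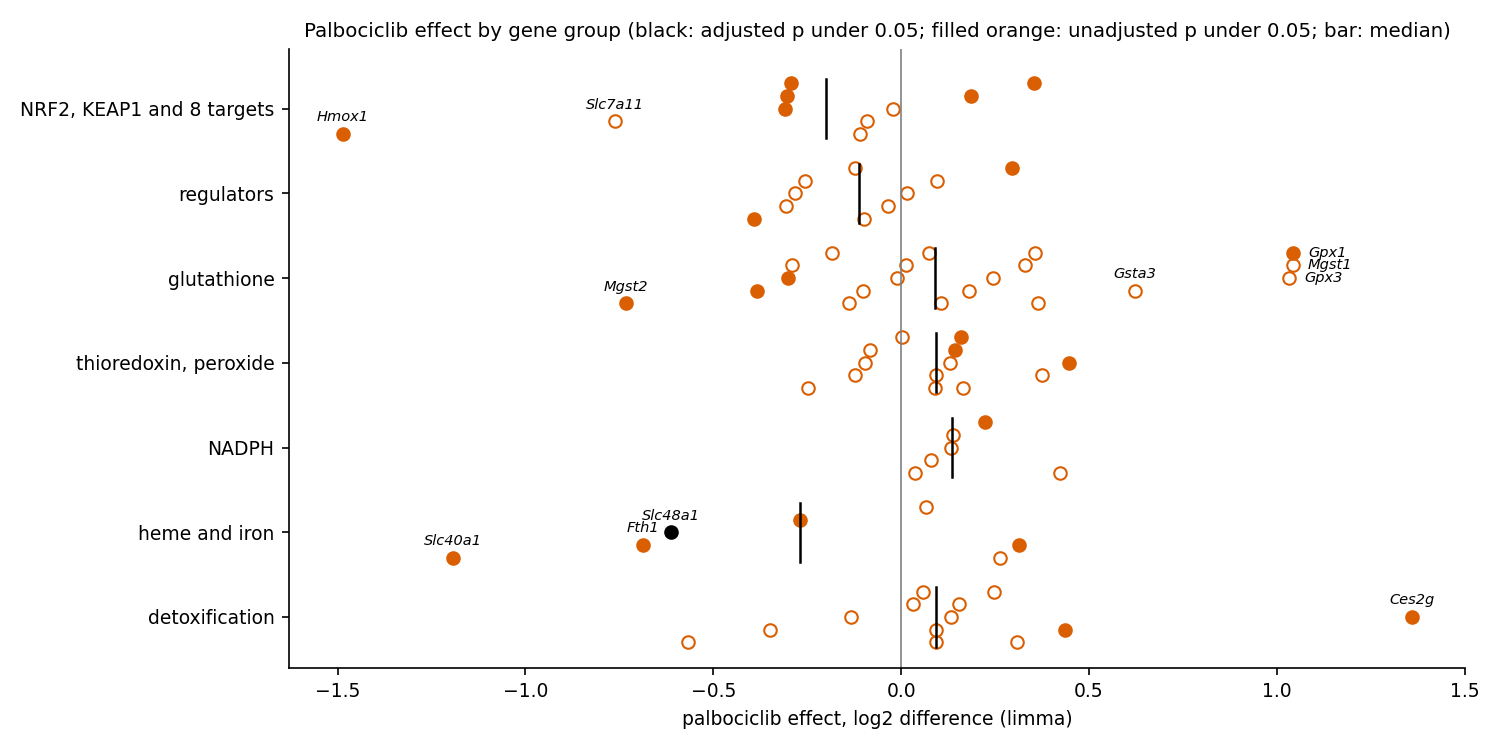
Palbociclib effect as a log2 difference (horizontal axis) of Nfe2l2, Keap1 and the 8 targets and of the wider NRF2 list by group (rows), where each point is a gene, black points have a limma adjusted p under 0.05, filled orange points an unadjusted p under 0.05, and bars are group medians. Slc48a1 is the only black point, and the medians run from -0.27 for the heme and iron genes to 0.13 for the NADPH genes.

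Across tumors the 10 genes were correlated in both directions. Of the 45 pairs, 26 had a Pearson correlation above 0 and 19 below 0 over the 12 tumors on the log2 scale, with a median of 0.07. The closest pair was Gclm and Txnrd1 (r = 0.76, and 0.73 after removal of arm means), and the most opposed was Keap1 and Txnrd1 (r = -0.64). Hmox1 followed Gclm (r = 0.67) and Gsr (r = 0.67), but after removal of arm means these were 0.49 and 0.28. Nfe2l2 RNA followed Gclm (r = 0.64) and ran against Nqo1 (r = -0.54). The tumors share arms, neighboring tissue and immune cells, and these values are descriptions.

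Over 11178 other genes with a mean of at least 1 FPKM, the one most like each of the 10 by Pearson correlation over the 12 tumors was also found, again as a description. Arm means were not removed. Each value is the highest of 11178 from only 12 tumors, so high values arise from the search itself, and all 10 lay between 0.87 and 0.94. For Nfe2l2 it was Csf3r, the receptor for the growth factor of neutrophils (r = 0.94), and for Hmox1 it was Mmp9, a protease stored by neutrophils (r = 0.91). Csf3r was at 1.49 to 3.91 FPKM with palbociclib and 2.14 to 14.6 FPKM without it, and Mmp9 at 0.823 to 3.30 FPKM with it and 2.30 to 8.21 FPKM without it. Vehicle replicate 3 was the highest tumor for both Nfe2l2 (56.1 FPKM) and Csf3r (14.6 FPKM). For Slc7a11 it was Gdf15, a stress-induced secreted factor (r = 0.89), and for Gsr it was Efna1 (r = 0.91). For Srxn1 it was Grpel1, a mitochondrial protein import factor (r = 0.92), and for Nqo1 it was the proteasome subunit Psmb1 (r = 0.87). The others were Fbxo6 for Keap1 (r = 0.87), Sos2 for Gclc (r = 0.92), Stbd1 for Gclm (r = 0.92) and St6galnac6 for Txnrd1 (r = 0.89).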

How the data were processed

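Bulk RNA of 12 tumors was sequenced, and the authors deposited 1 table of FPKM per tumor with 34745 entries. The labels name HISAT2 and GRCm38/mm10, and versions, the counting tool and the annotation are not given in the sources used here. For 67 repeated symbols the entry with the highest mean was kept, leaving 34678. No counts were used, since FPKM holds none, and fragments were estimated from the steps between low FPKM values, which is approximate. FPKM depends on gene lengths the authors chose and sums to a different total in each tumor.

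Groups came from the treatment labels. Version 3.58.1 of limma, run under R 4.3.3 with its variance trend, estimated a mean for each arm from log2(FPKM + 0.1) of the 15350 genes averaging at least 0.1 FPKM. No covariate was used, and p-values were adjusted over these genes by the Benjamini-Hochberg method with a threshold of 0.05. The log2 differences understate changes of low genes. Positions are from GENCODE M21. The genes and lists were chosen with earlier results of these data known. Genes named beyond the 10 were the wider-list genes called in any comparison, those with a mean of at least 1 FPKM and the 4 highest and 4 lowest palbociclib effects or the 2 highest and 2 lowest anti-PD-1 effects, and the gene most correlated with each of the 10. Others, such as Ftl1, Blvra, Blvrb, Fech and Slc3a2, were chosen after their values were seen. Alternatives were pseudocounts of 1 and 0.01, a filter at 1 FPKM or none, TPM, quantile normalization, no trend, a replicate block, only the arms compared, leaving out each tumor and, chosen after seeing the data, leaving out 2 sets of 3 tumors rich in genes of other tissues. Figures were drawn with matplotlib 3.10.9.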

Additional observations from a re-analysis of the deposited data

How the results depend on the processing

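Of 1802 differences of the 10 genes recomputed under the alternatives, 1716 kept their direction and side of the threshold, 3 came to pass it and 83 changed direction, 57 of them with 1 tumor left out. None of those 83 passed the adjusted test in either fit. Calls among the 10 in the palbociclib effect numbered 0 to 2 with 1 tumor left out (1, Hmox1, without vehicle replicate 1, and 2, Hmox1 and Srxn1, without anti-PD-1 replicate 1) and 0 under every other alternative. Calls on the wider list numbered 0 to 4 with 1 tumor left out (3 without vehicle replicate 1 and 4 without anti-PD-1 replicate 1), and 0 with no filter, with eBayes without a trend and without either set of 3 tumors. Over all genes the 48 calls of the palbociclib effect became 758 without anti-PD-1 replicate 1, 692 without vehicle replicate 1, 264 without combination replicate 2, 0 to 10 without any other tumor, 11 with no filter, 0 with eBayes without a trend, and 2 and 6 without the sets of 3 tumors. The replicate block gave 0 calls among the 10 and 1 on the wider list, as without it, and 129 over all genes, with an adjusted p of 0.0554 for Hmox1. Whether the replicate numbers pair the samples is not known. Of 18 same-number pairs of tumors, 7 had deviations that correlated over 0.1, with a range from -0.21 to 0.45, which does not settle it. Slc7a11 rests on an estimated 40 to 324 fragments per tumor.

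Without combination replicates 1 and 2 and palbociclib replicate 2 the direction changed for Nfe2l2 (combination minus palbociclib 0.092, interaction 0.058), Keap1 (interaction 0.024), Gclc (interaction 0.0032), Gclm (combination minus vehicle 0.022), Txnrd1 (combination minus anti-PD-1 0.076) and Slc7a11 (combination minus vehicle 1.05, combination minus anti-PD-1 0.35, palbociclib effect 0.047, interaction 0.61). Without combination replicate 1 and palbociclib replicates 1 and 2 it changed for Nfe2l2 (combination minus palbociclib 0.030), Keap1 (interaction 0.032), Nqo1 (palbociclib effect 0.099, anti-PD-1 effect -0.065), Gclc (interaction 0.25), Gclm (combination minus vehicle 0.073, interaction 0.091), Txnrd1 (combination minus anti-PD-1 0.12), Gsr (combination minus vehicle 0.017) and Slc7a11 (combination minus vehicle 0.096). With TPM it changed for Nfe2l2 (anti-PD-1 effect -0.035) and Gclc (combination minus palbociclib -0.025, anti-PD-1 effect -0.0037), with quantile normalization for Nfe2l2 (anti-PD-1 minus vehicle -0.0041, anti-PD-1 effect -0.026) and with a pseudocount of 1 for Txnrd1 (combination minus anti-PD-1 3.5e-05). The causes were not tested. Slc7a11 has no value with the filter at 1 FPKM, and the palbociclib effect, anti-PD-1 effect and interaction have none when only the arms compared enter.

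The remaining changes of direction came from leaving out 1 tumor at a time. In palbociclib minus vehicle the differences concerned ranged from -0.16 to 0.073 for Nfe2l2. In anti-PD-1 minus vehicle the differences concerned ranged from -0.050 to 0.19 for Nfe2l2, -0.17 to 0.014 for Keap1, -0.35 to 0.028 for Nqo1, -0.11 to 0.43 for Hmox1, -0.0017 to 0.11 for Gclc and -0.050 to 0.21 for Txnrd1. In combination minus vehicle the differences concerned ranged from -0.19 to 0.051 for Nfe2l2, -0.0068 to 0.18 for Keap1, -0.041 to 0.29 for Nqo1, -0.25 to 0.19 for Gclm, -0.050 to 0.24 for Txnrd1, -0.18 to 0.017 for Gsr and -1.01 to 0.17 for Slc7a11. In combination minus palbociclib the differences concerned ranged from -0.071 to 0.029 for Nfe2l2, -0.13 to 0.77 for Hmox1, -0.14 to 0.12 for Gclc and -0.51 to 0.60 for Slc7a11. In the anti-PD-1 effect the differences concerned ranged from -0.036 to 0.083 for Nfe2l2, -0.029 to 0.42 for Hmox1 and -0.044 to 0.083 for Gclc. In the interaction the differences concerned ranged from -0.21 to 0.029 for Nfe2l2, -0.14 to 0.038 for Keap1, -0.21 to 0.69 for Hmox1, -0.18 to 0.072 for Gclc and -0.29 to 0.16 for Gclm. In the palbociclib effect the differences concerned ranged from -0.12 to 0.067 for Nqo1. In combination minus anti-PD-1 the differences concerned ranged from -0.081 to 0.12 for Txnrd1.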
